A study of Mus musculus with 2 samples.

Results

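Mural cells, the pericytes and smooth muscle cells that wrap blood vessels, were selected from 2 scRNA-Seq libraries of injured mouse hind limb muscle by the genes they expressed. Kept barcodes had over 200 genes, and under 10% of their UMIs (unique molecular identifiers, the counted RNA molecules) were mitochondrial. A member had a UMI of at least 3 of the 6 genes *Rgs5*, *Notch3*, *Myh11*, *Kcnj8*, *Acta2* and *Tagln*, among them *Rgs5*, *Notch3* or *Myh11*. It had no UMI of *Csf1r*, *C1qa*, *Pdgfra*, *Pecam1* or *Tnmd*, which mark phagocytes, fibroblasts, endothelial cells and tenocytes. The rule found 486 members among 48143 kept barcodes, 280 of 23385 in the IgG library and 206 of 24758 in the SPP1-nAb library.

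Both libraries came from male C57BL/6J mice carrying S100GFP-tg, in which the S100B promoter drives GFP, at an age of 10 to 16 weeks. The peroneal nerve was crushed on both sides, and 2 μg of antibody in 10 μL was injected into the tibialis anterior (TA) muscle at injury and every 2 days afterward. The IgG group received goat anti-mouse IgG and the SPP1-nAb group a neutralizing antibody against SPP1 (osteopontin), and muscle was taken 7 days after injury. Animals were pooled into 1 library per group, and all mice of both groups were injured and injected. The comparison asks how neutralizing SPP1 changes the cells of denervated muscle. The sample titles name GFP-positive cells, whereas the study's methods describe sorting live cells with and without GFP from TA and gastrocnemius muscles, so the share of any cell type depends on that sort. With 1 library per group no test was possible, and all intervals are 95% intervals that cover counting error only.

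Pericytes sit on capillaries, share their basement membrane and respond to PDGF from the endothelium, while vascular smooth muscle cells form the contractile layer of arterioles and larger vessels. In both, Notch signaling from the endothelium maintains mural identity, and cGMP, potassium channels and calcium channels set vessel tone. Smooth muscle is known by its contractile proteins and pericytes by the potassium channel made of *Kcnj8* and *Abcc9*.

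The kept barcodes held 97022487 UMIs in the IgG library and 127244621 in the SPP1-nAb library, with medians of 3822 and 4756 per barcode. The members were shallower, with medians of 3393 and 4167. The libraries shared 163 barcodes, none of them members in both, and 1 member had a barcode that also occurred in the other library. Levels are therefore given as CPM, the UMIs of a gene per 1000000 UMIs summed over the cells of a set. UMI counts were not scaled by transcript length, and levels were not compared between genes. Where a pair of values is given, IgG comes first and SPP1-nAb second, and a value in parentheses after them is the log2 ratio of SPP1-nAb over IgG, followed by its interval.

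The members did not all match their label. At least 1 UMI of the satellite cell and myoblast genes *Pax7*, *Myf5*, *Myod1*, *Calcr* or *Myog* was present in 123 of 280 IgG members and in 114 of 206 SPP1-nAb members. Of these, only 10 and 10 had a UMI of *Rgs5* or *Myh11*, compared with 152 of the 157 and 85 of the 92 members without a satellite cell gene. *Notch3*, *Acta2* and *Tagln* as the only 3 marker genes accounted for 117 of the 280 IgG members. Satellite cells themselves held these genes. Among 561 IgG and 345 SPP1-nAb barcodes chosen for at least 3 satellite cell genes, 53.3% and 60.0% had a UMI of *Notch3*, a Notch receptor also used in satellite cells. *Acta2* was seen in 28.9% and 40.0% of them and *Tagln* in 36.7% and 38.3%, and 52 and 38 of them met the mural rule.

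The values of the rule's own genes are given as a description, since they chose the members. Members without satellite cell genes had 2693 CPM of *Rgs5* in IgG and 2951 in SPP1-nAb, whereas members with such genes had 72.1 and 26.1. *Myh11*, the smooth muscle myosin heavy chain, was at 4341 and 3966 CPM without and at 15.2 and 10.4 with satellite cell genes. *Notch3* spanned a narrower range, at 412 and 458 CPM without and 419 and 321 with them. The 178 IgG and 131 SPP1-nAb members with exactly 3 marker genes lay just inside the rule, and 67.4% and 80.9% of them held a satellite cell gene. Just outside, with exactly 2 marker genes, were 330 and 260 barcodes, of which 90.9% and 87.3% did. *Myl9*, which was not in the rule, was at 658 and 138 CPM in the former and at 22.4 and 13.7 in the latter. The members are therefore described in 2 sets, the 249 without and the 237 with a satellite cell gene (satellite markers in the plots), a split made after the data had been seen. A further 117 IgG and 139 SPP1-nAb barcodes met the marker part of the rule and were lost to the excluded genes, 51 and 70 of them to a single UMI.

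**Figure D1:**
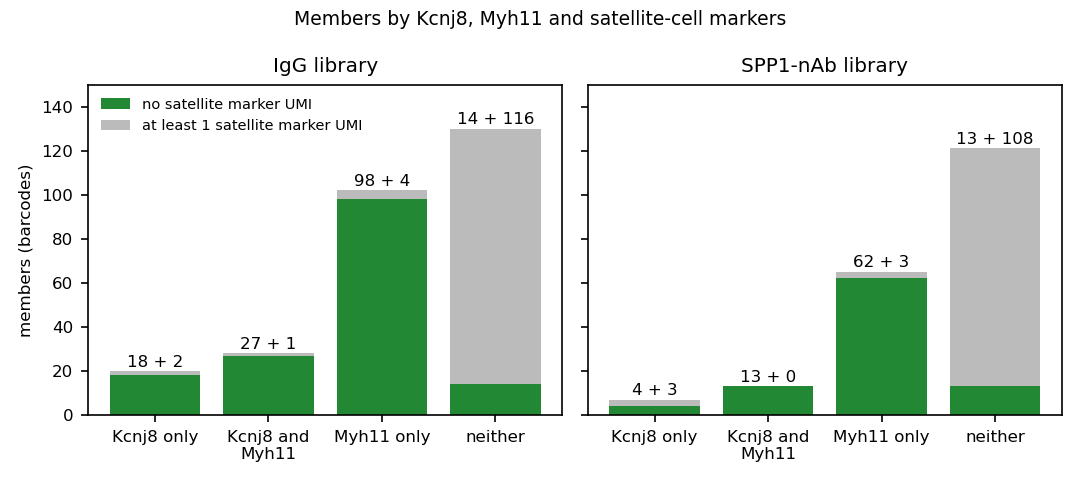
Number of members (vertical axis) in each library by a UMI of *Kcnj8* and of *Myh11*, with bars divided by the presence of a satellite cell or myoblast gene. Most members with neither gene held a satellite cell gene, 116 of 130 in IgG and 108 of 121 in SPP1-nAb, whereas few of those with *Myh11* did.

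The set without satellite cell genes had the contractile apparatus that the rule had only sampled. *Myl9*, the regulatory light chain of smooth muscle myosin, was at 2853 (IgG) and 2303 CPM (SPP1-nAb), compared with 17.1 and 10.4 in members with satellite cell genes. Its kinase *Mylk* was at 1896 and 1830 CPM without and at 13.3 and 6.95 with satellite cell genes. *Cnn1* (calponin) had 112 and 79 UMIs without and none with satellite cell genes, and so did *Pln* (phospholamban, the brake of the calcium pump) with 234 and 144 UMIs and *Myocd* (myocardin, the coactivator of smooth muscle genes) with 70 and 54 UMIs. *Des*, the intermediate filament of all muscle, was in contrast at 229 and 271 CPM without and at 406 and 405 CPM with satellite cell genes. The list of 26 contractile genes, none of them a gene of the rule, summed to 36397 and 32219 CPM in the former set and to 4881 and 5213 CPM in the latter.

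Myocardin acts with serum response factor at CArG boxes, and the 250 bases before the start of *Tagln*, which encodes the actin-binding protein transgelin, are shown because they hold one. They lie at chr9:45847405-45847654 of GRCm39 on the minus strand, upstream of the canonical transcript in GENCODE M39, and the capitals mark the box, 64 to 55 bases before the start.
Tagln: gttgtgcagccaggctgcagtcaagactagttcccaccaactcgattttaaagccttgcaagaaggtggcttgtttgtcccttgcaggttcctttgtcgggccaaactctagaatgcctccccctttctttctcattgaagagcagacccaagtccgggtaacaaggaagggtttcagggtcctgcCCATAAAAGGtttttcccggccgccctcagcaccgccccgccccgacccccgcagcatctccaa
Both strands were searched. A CArG box was found in the same window of 304 of 21751 protein-coding genes (1.40%) and of 1 of the 26 contractile genes (3.85%), *Fbxl22*. The match is a description of these letters, and boxes elsewhere, in introns or farther upstream, were not searched.

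The genes with the highest ratio of members over all other kept barcodes included several of vessel tone. *Gucy1a1*, a subunit of the nitric oxide receptor guanylate cyclase, was at 1406 and 1184 CPM in members without satellite cell genes and at 6.08 and 4.15 CPM in all other barcodes. Its partner *Gucy1b1* was at 499 and 390 CPM, compared with 2.92 and 2.10. *Npy1r*, a receptor for the sympathetic transmitter neuropeptide Y, was at 362 and 256 CPM, compared with 1.52 and 0.823. Further leading genes were *Lmod1* (leiomodin, an actin nucleator), *Rasl11a*, *Olfr558*, *Rasd1*, *Sncg* and the calcium-activated chloride channel *Ano1*, at 219 and 244 CPM. The genes with the highest ratio in members with satellite cell genes were of another kind. The highest were *Iqsec3*, *Bdnf*, *Ano5* and *Pde1c*. Farther down were *Pax7* and *Myf5*, which define that set, and *Megf10*, *Fgfr4*, *Heyl*, *Asb5* and *Capn6*.

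**Figure D2:**
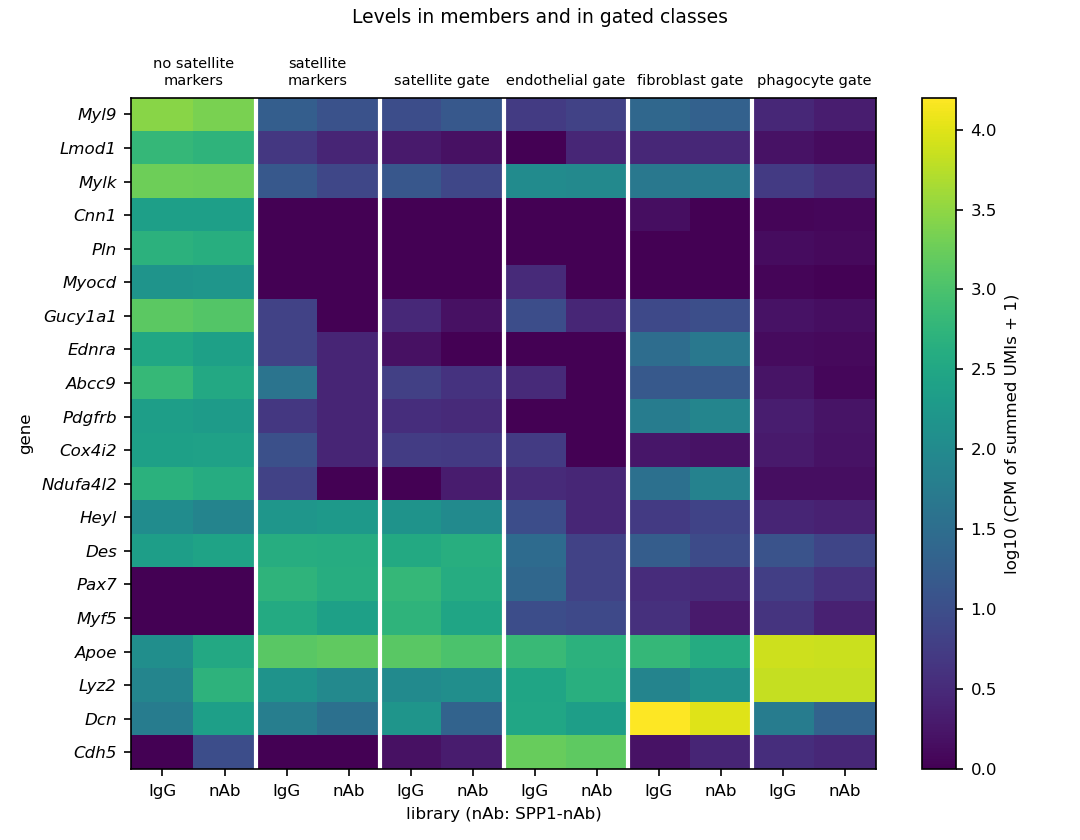
Level of 20 genes (rows) as log10(CPM + 1) in 6 sets of cells (columns), each in IgG and SPP1-nAb. Contractile and pericyte genes were high in members without satellite cell genes and low in members with them, which resembled the satellite cell barcodes in these rows.

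Compared with other cells of the same muscle, several mural genes stood apart and others were shared. *Abcc9*, the sulfonylurea receptor of the pericyte potassium channel, was at 657 and 342 CPM in members without satellite cell genes, at 2.21 and 0 in endothelial barcodes and at 14.1 in the fibroblast barcodes of IgG. *Pdgfrb*, the PDGF receptor of pericytes, was at 221 and 199 CPM and in fibroblast barcodes at 56.7 and 79.2. *Prkg1*, the cGMP-dependent kinase, was at 1723 and 1630 CPM and in Schwann cell barcodes at 1476 and 1557. *Ebf1*, a transcription factor of mural and stromal cells, was at 1715 and 1354 CPM and in fibroblast barcodes at 1738 and 1454. *Sparcl1*, a secreted matrix protein, was at 4396 and 4216 CPM, above 1882 and 1596 in endothelial barcodes. GFP, the reporter, was at 126 and 116 CPM, compared with 462 and 461 in Schwann cell barcodes and 11.1 and 22.5 in endothelial barcodes. Thinned to 1000 UMIs per cell, 7.53% and 9.20% of members without satellite cell genes had a GFP UMI, compared with 1.14% and 2.30% of endothelial barcodes. Unthinned, the shares of these members were 19.1% and 22.8%. Thinning used 146 of the 157 and 87 of the 92 cells, since 11 and 5 were shallower.

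A UMI of *Kcnj8* and of *Myh11* divided the members into a pericyte side and a smooth muscle side. The *Kcnj8*+*Myh11*- subset held 20 IgG and 7 SPP1-nAb members and the *Myh11*+*Kcnj8*- subset 102 and 65, while 28 and 13 had both genes and 130 and 121 neither. Of the 27 *Kcnj8*+*Myh11*- members 2 IgG and 3 SPP1-nAb members had a satellite cell gene, and of the 167 *Myh11*+*Kcnj8*- members 4 and 3 did. These members were kept in all levels of the 2 sides. They weighed most on the small subset. Its members without satellite cell genes held 32780 of its 43007 UMIs in IgG but only 5808 of its 16218 UMIs in SPP1-nAb. The former subset was shallow, with median depths of 1436 and 2096 UMIs, compared with 3262 and 3629 in the latter. Summed over both libraries, *Abcc9* was at 2043 CPM on the *Kcnj8* side and 147 CPM on the *Myh11* side, a log2 ratio of 3.80 (3.39 to 4.22). *Abcc9* and *Kcnj8* are neighbors on chromosome 6, at 142533588-142648571 and 142510563-142517830 of GRCm39.

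Several other pericyte and signaling genes were on the same side and others were not, with pairs of values given here for the *Kcnj8* side first and the *Myh11* side second. *Ednrb*, an endothelin receptor, was at 659 and 90.4 CPM, whereas *Ednra*, the endothelin receptor that drives constriction, was at 304 and 242 CPM, a log2 ratio of 0.33 (-0.47 to 1.04). *Pdgfrb* was at 574 and 138 CPM, and *Vtn* (vitronectin, a matrix and plasma protein) at 490 and 78.4 CPM. *Ndufa4l2* was at 642 and 351 CPM, a log2 ratio of 0.87 (0.33 to 1.37). *Cox4i2* was at 321 and 229 CPM, a log2 ratio of 0.49 (-0.29 to 1.19). *Cspg4* was at 152 CPM on both sides, a log2 ratio of 0.00 (-1.17 to 0.99). *Mcam* was at 101 and 165 CPM, a log2 ratio of -0.71 (-2.19 to 0.47). Of the genes chosen by size, *Cd36*, a fatty acid receptor also found on capillary endothelium, was at 878 and 88.7 CPM. *Cp* (ceruloplasmin), *Marcks*, *Herc1*, *Gpx3*, *Rbms1*, *Apoe* and *Plcl1* followed with log2 ratios between 2.63 and 2.02. Single libraries differed within this small subset, since *Abcc9* was at 2744 CPM in its 20 IgG members and at 185 CPM in its 7 SPP1-nAb members. *Apoe*, a lipid carrier that macrophages also make, was at 395 CPM in the former and 1850 CPM in the latter. Of the latter 7 members 3 had a satellite cell gene. Among all members with satellite cell genes, *Apoe* had the most UMIs of the macrophage genes, which summed to 2327 (IgG) and 2363 CPM (SPP1-nAb). Over all members without satellite cell genes the level of *Apoe* was 120 (IgG) and 345 CPM (SPP1-nAb). The part of members with satellite cell genes in its place on the *Kcnj8* side was not tested.

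On the *Myh11* side were contractile genes of which no UMI was seen in the 27 *Kcnj8*+*Myh11*- members. With a floor of 3 counts over that subset, or 50.7 CPM, *Pln* at 634 CPM was at least 12.5-fold higher, *Cnn1* at 312 CPM at least 6.16-fold and *Myocd* at 194 CPM at least 3.84-fold. The same held for *Ntrk2*, the receptor of BDNF, at 276 CPM (at least 5.45-fold) and for *Entpd1*, an enzyme that degrades extracellular ATP, at 235 CPM (at least 4.65-fold). *Usp2*, *Txndc11*, *Ramp1*, *Cdc42ep3*, *Susd5*, *Inhba* and *Synm* were likewise at 0 and differed by at least 3.43-fold to 5.32-fold. Contractile genes detected on both sides were also higher on the *Myh11* side, again given second. *Tpm2*, a tropomyosin of thin filaments, was at 135 and 3646 CPM, *Myl9* at 388 and 3179 CPM and *Gucy1a1* at 287 and 1550 CPM. *Prkg1* was at 2566 CPM on the *Kcnj8* side and 1664 on the *Myh11* side.

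**Figure D3:**
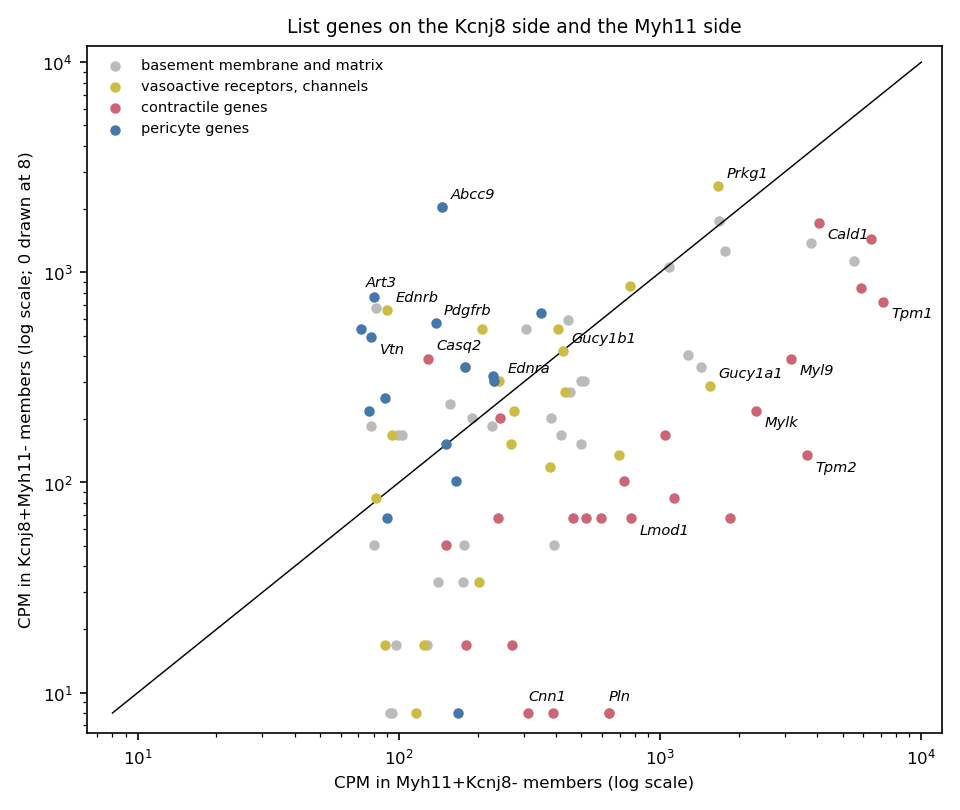
CPM of genes in *Kcnj8*+*Myh11*- members (vertical log axis) and *Myh11*+*Kcnj8*- members (horizontal log axis), UMIs summed over both libraries, with genes at 0 drawn at the lower edge. Members with satellite cell genes are included on both axes. *Abcc9* at 2043 and 147 CPM lay far above the diagonal, and *Pln* at 0 and 634 CPM and *Cnn1* at 0 and 312 CPM lay at the edge.

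Between the libraries the members differed first in number. They were 1.20% of kept barcodes (1.06 to 1.35) in IgG and 0.832% (0.723 to 0.953) in SPP1-nAb. Without satellite cell genes the shares were 0.671% (0.571 to 0.785) and 0.372% (0.300 to 0.456), and with them 0.526% (0.437 to 0.627) and 0.460% (0.380 to 0.553). The lower share in SPP1-nAb was thus seen mainly in the set with mural genes, where the ratio was 0.553. Leaving out the cells of this set that held myeloid RNA, described further on, moved the ratio to 0.367 (0.594% and 0.218%). Lower shares in SPP1-nAb were not particular to these cells. Fibroblast barcodes were 7.61% and 2.62% of kept barcodes and satellite cell barcodes 2.40% and 1.39%. Endothelial barcodes were 1.13% and 0.945% and Schwann cell barcodes 1.61% and 1.54%. Phagocytes were 36.8% and 45.8% of kept barcodes and enter the denominator. Over the barcodes outside the phagocyte gate, the shares without satellite cell genes were 1.06% and 0.686%, and per endothelial barcode there were 0.595 and 0.393 such members. Among barcodes without satellite cell genes that met the marker part of the rule, the excluded genes removed 90 in IgG and 87 in SPP1-nAb. What remained were the 157 and 92 members, so the loss was unequal. The sort also sets these shares. The parts of the sort and of this loss in the difference were not tested.

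The composition of the members without satellite cell genes is given by the *Kcnj8* and *Myh11* subsets. *Myh11*+*Kcnj8*- members were 98 of 157 (62.4%, 54.3 to 70.0) in IgG and 62 of 92 (67.4%, 56.8 to 76.8) in SPP1-nAb. *Kcnj8*+*Myh11*- members were 18 (11.5%, 6.94 to 17.5) and 4 (4.35%, 1.20 to 10.8). The intervals overlapped for both subsets, but for *Kcnj8*+*Myh11*- members each share lay outside the interval of the other library. With 1 library per group a difference in composition was not tested. Shallower cells miss a UMI of either gene more often, and the median depth was 2560 UMIs in IgG and 3331 in SPP1-nAb.

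Gene by gene, UMIs were summed per library and genes with at least 100 UMIs over both libraries were compared. In all 486 members 28 of 3314 such genes (0.845%) were at least 2-fold higher in SPP1-nAb and 19 (0.573%) at least 2-fold lower. In members without satellite cell genes 19 of 1466 genes (1.3%) were higher and 7 (0.477%) lower. In those with satellite cell genes 8 of 1876 (0.426%) were higher and 9 (0.48%) lower. These shares are the background for the lists below. The median log2 ratio over the genes compared was 0.03 in all members and 0.04 in those with satellite cell genes. Members were summed, and a difference in level between cells cannot be told apart from a difference in how many of them express the gene.

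Several of the largest ratios in all members rested on 1 of the sets. *Ankrd1*, a stretch-responsive muscle gene, was at 287 and 109 CPM over all members (log2 ratio -1.40). It was at 531 and 137 CPM in members with satellite cell genes, whereas those without held 8 and 20 UMIs of it, in 7 cells each (1.82, 0.58 to 3.21), too few to be compared by the rule. *Spp1* itself was at 132 and 55.9 CPM over all members. Of its 132 IgG UMIs, 130 were in 8 members with satellite cell genes, and members without such genes held 2 UMIs in IgG and 6 in SPP1-nAb. *Ttn*, the giant sarcomere protein, had 90 SPP1-nAb UMIs in 13 members with satellite cell genes and 18 IgG UMIs in 10. *Pdgfd* and *Abcc9* were at -1.73 and -1.38 over all members, with nearly all of their UMIs in members without satellite cell genes. For *Abcc9* these held 312 of 333 IgG UMIs and 115 of 116 SPP1-nAb UMIs.

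In the members without satellite cell genes the contractile program differed little between the libraries. The 26 contractile genes summed to 36397 and 32219 CPM, a log2 ratio of -0.18 (-0.21 to -0.14), and 0 of the 23 compared were past 2-fold in either direction. *Tpm1*, a tropomyosin, was at 6037 and 5447 CPM (-0.15), *Mylk* at 1896 and 1830 CPM (-0.05) and *Cald1* (caldesmon) at 3659 and 3582 CPM (-0.03). *Tpm2* stood lower, at 3146 and 2335 CPM (-0.43, -0.56 to -0.30). Over all 486 members the same list was at 19826 and 15170 CPM (-0.39), where the larger part of SPP1-nAb members with satellite cell genes lowers the sum.

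The genes of vessel tone were similar. The list of 44 receptors, channels and cyclic nucleotide enzymes summed to 10082 and 9127 CPM (-0.14, -0.21 to -0.08), with 1 of the 21 compared past 2-fold lower. *Gucy1a1* was at 1406 and 1184 CPM (-0.25), *Ednra* at 311 and 241 CPM (-0.37, -0.78 to 0.03), the calcium channel *Cacna1c* at 438 and 452 CPM (0.05) and the phosphodiesterase *Pde3a* at 734 and 785 CPM (0.10). *Rgs16*, which shortens signals of G protein-coupled receptors, was at 118 and 208 CPM (0.82, 0.29 to 1.35). Of 28 transcription factors of mural and smooth muscle cells, 11 were compared and none was past 2-fold. Among these *Ebf1* was at -0.34, *Mef2c* at 0.03 and *Nr2f2* at -0.08 on the log2 scale.

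Pericyte genes were lower in SPP1-nAb in sum. The list of 22 summed to 3849 and 3091 CPM (-0.32, -0.43 to -0.21), and 1 of the 13 compared was past 2-fold lower. *Abcc9* was at 657 CPM in 67 of 157 cells in IgG and at 342 CPM in 32 of 92 cells in SPP1-nAb (-0.94, -1.26 to -0.63). Over all other kept barcodes *Abcc9* was also lower in SPP1-nAb, at 5.61 and 2.73 CPM (-1.04). *Art3* and *Vtn* were at -0.59 and -0.55. Other pericyte genes differed less, with *Pdgfrb* at 221 and 199 CPM (-0.15), *Cox4i2* at 240 and 256 CPM (0.09) and *Ndufa4l2* at 476 and 405 CPM (-0.23), the last 2 encoding mitochondrial proteins that pericytes express. Within the *Myh11*+*Kcnj8*- members alone the log2 ratio of *Abcc9* was -0.33, and the *Kcnj8*+*Myh11*- members, in which the level of *Abcc9* was higher, were 18 and 4. The difference in *Abcc9* and in the number of *Kcnj8*+*Myh11*- members cannot be told apart. Thinned to 1000 UMIs, 34.9% (27.2 to 43.3) and 21.8% (13.7 to 32.0) of the cells had a UMI of *Abcc9*, and 0 of 176 and 0 of 174 endothelial barcodes had.

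Of the Notch pathway, *Jag1* and *Hes1* were lower in SPP1-nAb and *Rbpj* was higher. The 20 genes summed to 2014 and 1556 CPM (-0.37, -0.53 to -0.22), while the 4 compared had a median log2 ratio of 0.00145 and none of them was past 2-fold. *Jag1*, the Notch ligand that mural cells themselves present, was at 345 and 202 CPM (-0.77, -1.20 to -0.35), and the target gene *Hes1* at 705 and 485 CPM (-0.54, -0.82 to -0.27). *Nrarp*, a feedback inhibitor and target, had 54 and 21 UMIs and the target *Heyl* 51 and 26 (-0.47, -1.21 to 0.24), too few to be compared by the rule. The nuclear effector *Rbpj* was at 139 and 202 CPM (0.54, 0.03 to 1.05). *Hes1* was at 582 and 340 CPM in endothelial barcodes and 254 and 127 CPM in satellite cell barcodes, so that its lower level in SPP1-nAb was seen in those cells too. Over all other kept barcodes it was at 79.0 and 39.4 CPM.

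Growth factors of the vessel wall differed in single genes. *Pdgfd*, a ligand of the PDGF receptor beta, was at 189 and 74.4 CPM (-1.35, -2.05 to -0.70) and was the 1 of 7 genes compared in the PDGF and angiopoietin list that was past 2-fold. Over all other kept barcodes *Pdgfd* was also lower in SPP1-nAb, at 15.2 and 5.92 CPM (-1.36). *Pdgfa* was at 375 and 339 CPM (-0.14), and the list of 28 summed to 2016 and 1981 CPM (-0.02). The 23 TGF-β and BMP genes summed to 3007 and 3740 CPM (0.31, 0.20 to 0.42), none of 7 past 2-fold. *Id3*, a target of BMP signaling that blocks differentiation factors, was at 1050 and 1699 CPM (0.69, 0.52 to 0.87). It was at 725 and 542 CPM in members with satellite cell genes and at 675 and 589 CPM in endothelial barcodes. The BMP receptor *Bmpr2* was at 183 and 265 CPM (0.53, 0.09 to 0.98).

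**Figure D4:**
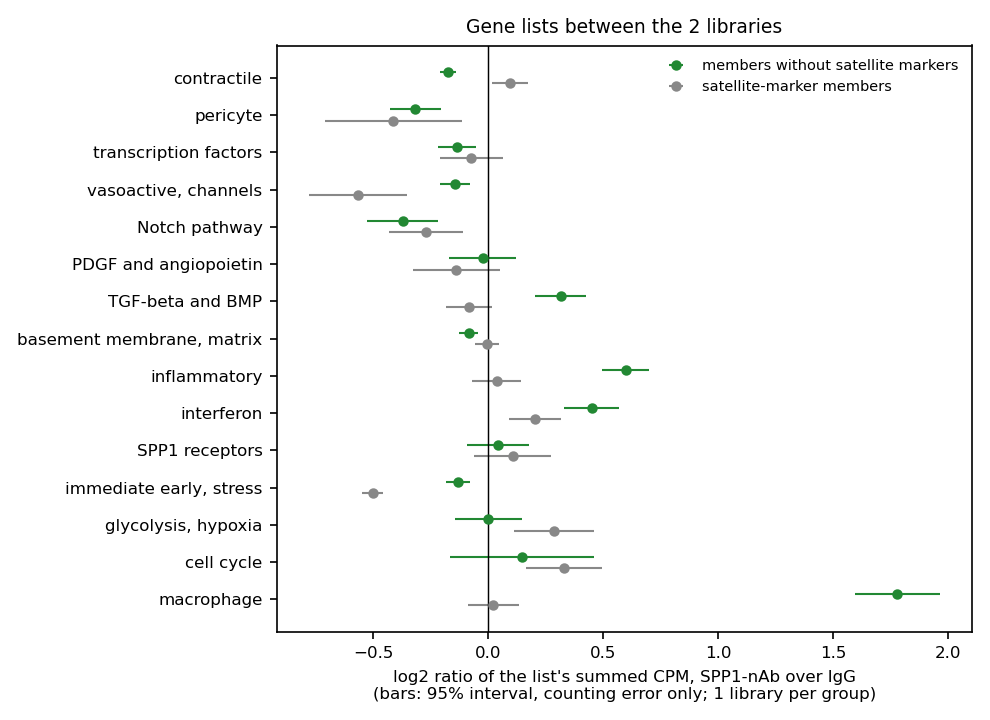
Log2 ratio of SPP1-nAb over IgG for the summed UMIs of each gene list (horizontal axis, with 95% counting intervals), in members without and with satellite cell genes. Contractile genes lay near 0 in both (-0.18 and 0.09), while the inflammatory list was at 0.60 in members without and at 0.04 in members with satellite cell genes.

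The summed matrix genes were at nearly the same level in both libraries, with a few higher in SPP1-nAb. The 43 basement membrane and matrix genes summed to 25169 and 23743 CPM (-0.08), and 3 of the 26 compared were past 2-fold higher. These were *Ccn2*, a target of TGF-β and YAP, at 71.5 and 196 CPM (1.46, 0.84 to 2.10), *Tnc* (tenascin C, a matrix protein of injured tissue) at 116 and 238 CPM (1.04) and *Fn1* (fibronectin) at 94.7 and 199 CPM (1.07). *Fn1* was in 11 and 18 cells, and without the cells holding myeloid RNA its ratio was -0.65 (-1.71 to 0.30). *Thbs1* (thrombospondin 1) was at 282 and 506 CPM (0.84), and the aggrecanase *Adamts4* at 301 and 503 CPM (0.74). *Col4a1*, a chain of basement membrane collagen, was at 673 and 530 CPM (-0.35). *Mgp*, an inhibitor of calcification, was at 2508 and 1782 CPM (-0.49), but 444 of its 1192 IgG UMIs were in 1 cell and without the top cell of each library the ratio was -0.36. Without the cells holding myeloid RNA *Mgp* was at 2733 and 1210 CPM (-1.18, -1.39 to -0.96), and at -1.28 when the top cells were left out as well. *Postn* (periostin) was at 242 and 381 CPM (0.65) and at -0.16 without its top cells.

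Inflammatory genes were higher in SPP1-nAb in the members without satellite cell genes. The 28 genes summed to 3285 and 4968 CPM (0.60, 0.50 to 0.70), and 1 of 9 compared was past 2-fold. In members with satellite cell genes the same list was at 2562 and 2627 CPM (0.04, -0.07 to 0.14). *Ccl2*, the chemokine that draws monocytes, was at 80.0 and 327 CPM (2.03, 1.49 to 2.61), with 38 UMIs in 19 cells and 110 UMIs in 17 cells. One SPP1-nAb cell held 54 of these UMIs, and without the top cell of each library the ratio was 1.37. With the cells holding myeloid RNA left out too, it was 0.45 (-0.50 to 1.35). *Cxcl1*, which draws neutrophils, was at 671 and 1077 CPM (0.68, 0.46 to 0.90), *Il6* at 282 and 485 CPM (0.78, 0.44 to 1.12) and *Ccl11*, an eosinophil chemokine, at 210 and 357 CPM (0.76, 0.37 to 1.16). *Socs3*, a feedback inhibitor of IL-6 signaling, was at 164 and 289 CPM (0.81), and the NF-κB inhibitor *Nfkbia* at 610 and 771 CPM (0.34). The 17 interferon genes summed to 2416 and 3299 CPM (0.45, 0.33 to 0.57), among them *Isg15* at 208 and 381 CPM and *Ifitm3* at 1075 and 1401 CPM.

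Myeloid RNA in the same cells moved with these genes. The 15 macrophage genes, all detected, summed to 338 UMIs in IgG and 820 in SPP1-nAb, or 711 and 2439 CPM (1.78, 1.59 to 1.97). At least 1 such UMI was in 106 of 157 and 89 of 92 cells, and 73.7% of the SPP1-nAb UMIs were in 10 cells. *Lyz2*, the macrophage and neutrophil lysozyme, was in 6.85% and 14.9% of cells at 1000 UMIs, compared with 14.2% and 18.4% of endothelial barcodes and 8.97% and 11.5% of Schwann cell barcodes. The IgG share was below those of both comparators and the SPP1-nAb share lay between them. The 5 neutrophil genes had no UMI in IgG and 297 in 11 cells of SPP1-nAb. *S100a8* and *S100a9*, which neutrophils make in bulk, had 140 UMIs each, in 5 and 6 cells, at least 66.0-fold above the floor of 3 counts (6.31 CPM). The genes with the largest ratios in these members were to a large part of this kind, *Il1b* at 52.6 and 363 CPM, *Cxcl2* at 63.1 and 422 CPM, *Lyz2* at 82.1 and 524 CPM and *Fabp5* at 54.7 and 295 CPM. Endothelial genes (168 and 271 CPM) and fibroblast genes (591 and 863 CPM) were also higher in SPP1-nAb, and of 78 SPP1-nAb UMIs of the fibroblast gene *Dcn* 56 were in 1 cell. The part of these cell types' RNA in the other differences was not tested. The 8 Schwann cell genes had 10 UMIs and 1 UMI, and the 6 lymphocyte genes none.

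The comparison was therefore repeated without cells that had UMIs of at least 3 macrophage genes or of any neutrophil gene, which left 139 IgG and 54 SPP1-nAb members, 0.594% and 0.218% of kept barcodes. The cells left could still have UMIs of fewer than 3 macrophage genes. *Il6* was then at 285 and 608 CPM (1.09, 0.70 to 1.49), *Cxcl1* at 638 and 1153 CPM (0.85, 0.58 to 1.12) and *Id3* at 1134 and 1629 CPM (0.52, 0.30 to 0.74). *Ccn2* (1.57), *Tnc* (1.18), *Adamts4* (1.10), *Rgs16* (1.43) and *Socs3* (0.87) were also higher in SPP1-nAb. Without the top cell of each library as well, *Il6* was at 1.18, *Cxcl1* at 0.70, *Id3* at 0.49, *Ccn2* at 1.37, *Tnc* at 1.20, *Adamts4* at 0.96, *Rgs16* at 1.21 and *Socs3* at 0.68. *Ccl2* was at 90.8 and 407 CPM (2.17, 1.57 to 2.78), but 54 of its 71 SPP1-nAb UMIs were in 1 cell, and without the top cells it was at 73.8 and 101 CPM (0.45, -0.50 to 1.35). Other genes differed less or not in the same direction. *Ifitm3* was at 0.00, *Isg15* at 0.38 (-0.18 to 0.92) and *Il1b* at 0.35 (-1.37 to 1.91), and *Fn1* was at -0.65 (-1.71 to 0.30), in the other direction. Some genes of the myeloid kind were still higher in SPP1-nAb. *Apoe* was at 106 and 252 CPM (1.26, 0.62 to 1.90), *Cxcl2* at 1.34 (0.50 to 2.18) and *Fabp5* at 1.58 (0.62 to 2.55). *Tyrobp*, from 2 and 6 UMIs, was at 2.81 (0.33 to 6.15), and *Lyz2* at 0.83 (-0.20 to 1.84). The part of this RNA in the remaining differences was not tested. Among the lower genes, *Abcc9* was at 631 and 493 CPM (-0.35, -0.72 to 0.00), *Pdgfd* at -1.05 and *Jag1* at -0.60. Of the genes with at least 100 UMIs, 10 of 1018 were then past 2-fold higher and 7 lower.

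**Figure D5:**
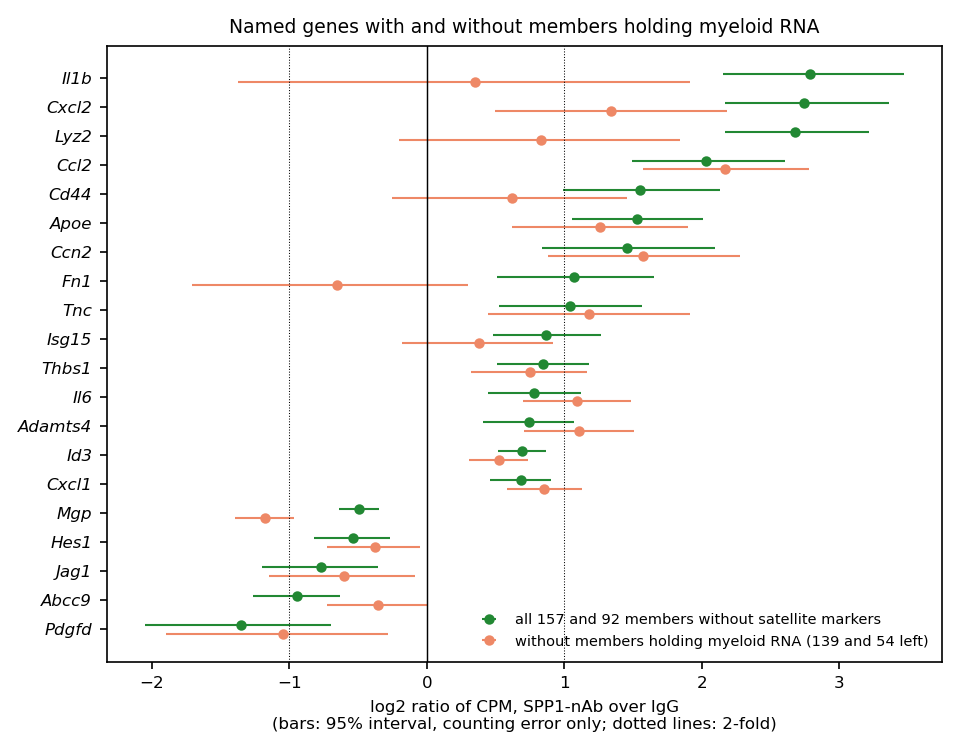
Log2 ratio of SPP1-nAb over IgG for named genes in members without satellite cell genes (horizontal axis, with 95% counting intervals). Values are drawn with and without the cells holding myeloid RNA, those with UMIs of at least 3 macrophage genes or of any neutrophil gene. *Il1b* was at 2.79 with and 0.35 without these cells, whereas *Il6* was at 0.78 and 1.09. *Ccl2* was at 2.03 and 2.17 as drawn, and at 0.45 without these cells and without the top cell of each library.

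Genes listed as SPP1 receptor chains were detected in the mural cells of both libraries at uneven levels. The 12 integrin and CD44 genes summed to 2296 and 2365 CPM (0.04, -0.09 to 0.18), with the most UMIs from *Itgb1*. *Itgb1*, the beta chain shared by many matrix receptors, was at 1180 and 982 CPM (-0.27), and the alpha chains *Itga1*, *Itga8* and *Itgav* were at 511 and 562, at 204 and 199 and at 54.7 and 83.3 CPM. The study names *Cd44*, *Itgav*, *Itgb1*, *Itgb3* and *Itgb5* in predicted SPP1 signaling, and not *Itga1* or *Itga8*. The sum thus also holds chains outside that prediction and is not a measure of SPP1 binding. *Itgb3*, the beta chain that pairs with *Itgav* to bind SPP1, had 2 and 2 UMIs, and *Itga9* had 13 and 14. *Cd44*, the hyaluronan receptor that also binds SPP1, was at 84.2 and 247 CPM (1.55, 0.99 to 2.13), with 40 and 83 UMIs in 29 and 28 cells. Without the cells holding myeloid RNA it was at 78.5 and 120 CPM (0.62, -0.25 to 1.46), and at 1000 UMIs 7.53% (3.82 to 13.1) and 12.6% (6.48 to 21.5) of cells had a UMI of it, compared with 6.82% and 9.77% of endothelial barcodes. Phagocyte barcodes had 792 and 991 CPM of *Cd44*. Without the cells holding myeloid RNA the interval of the difference included 0.

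Other genes lower in SPP1-nAb in these members were of varied kinds. *Dpysl2*, a cytoskeletal regulator, was at 181 and 74.4 CPM (-1.28), *U2surp* and *Pnisr*, both linked to splicing, at -1.25 and -1.18, and *Ogn*, a small matrix proteoglycan, at 198 and 86.3 CPM (-1.20). *Ogn* was also lower over all other barcodes (466 and 151 CPM), whereas *U2surp* was there at 133 and 129 CPM. *Egr1*, an immediate early gene, was at 1978 and 1282 CPM (-0.63, -0.79 to -0.46), compared with 1165 and 461 CPM over all other barcodes. The 20 immediate early and stress genes summed to 16731 and 15268 CPM (-0.13) in members without and 16372 and 11560 CPM (-0.50, -0.55 to -0.46) in members with satellite cell genes. Glycolysis and hypoxia genes were at 1972 and 1972 CPM, and cell cycle genes at 408 and 452 CPM (0.15, -0.17 to 0.46).

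The members with satellite cell genes had their own differences between the libraries. *Pax7* was at 529 and 417 CPM and *Calcr*, a receptor of quiescent satellite cells, at 178 and 88.6 CPM (-1.01, -1.53 to -0.50), both used for the split. *Notch2* was at 188 and 79.9 CPM (-1.23), *Hes1* at 167 and 83.4 CPM, *Igf1* at 148 and 48.6 CPM (-1.61) and *Gas1*, a growth arrest gene, at 338 and 155 CPM (-1.13). *Iigp1*, an interferon-induced GTPase, was at 34.2 and 146 CPM (2.10), in 10 and 20 cells. *Calcr* and *Gas1* were also lower in SPP1-nAb over all other kept barcodes, with log2 ratios of -1.59 and -1.60. Only 6 contractile genes and 1 pericyte gene of the lists had enough UMIs to be compared in this set. None of them was past 2-fold, which so few genes cannot set apart from the background share.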

How the data were processed

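The authors deposited counts of UMIs per gene and barcode for each library, whole numbers without normalization, written by CellRanger before removal of ambient RNA or doublets. The submitters' processing notes name CellRanger 8.0.0 and GRCm39 and the file headers CellRanger 9.0.1, and the methods also mention GRCm38. The files list 32287 features, of which 31674 were found in GENCODE M39 for GRCm39, the source of coordinates and sequence.

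Barcodes needed over 200 genes and a mitochondrial share of UMIs under 10%. Members were taken by the marker rule. Classes for comparison needed UMIs of at least 3 of their markers and none of other classes. No doublet caller, integration or ambient correction was run. UMIs were summed per library and scaled to CPM, and genes with at least 100 UMIs over both libraries were compared. With 1 library per group no test was run. Intervals were exact (Poisson for levels, Clopper-Pearson for shares, binomial for ratios). Only the ratio of summed UMIs and its interval were tested on simulated counts. Those counts were not drawn per cell, so UMIs that cluster in single cells were not covered.

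Genes named are those of the lists and, by size, the 10 largest ratios per direction, the 15 largest over other barcodes in all members (with a longer list for each of the 2 sets by satellite cell genes) and the 12 largest per *Kcnj8* or *Myh11* side, each with at least 20 cells or 100 CPM as floors and without mitochondrial, ribosomal, hemoglobin, immunoglobulin, sex-specific and rule genes. Others were chosen after their values were seen, and some genes these rules name are not reported here. Members and lists were chosen with earlier results of these data known. The split by satellite cell genes and the removal of cells with myeloid RNA were added after the data had been seen. Of 431 list genes 429 were found, and *Aldoa* and *Ccl19* occur under 2 identifiers each and are uncertain. Python 3.11.15, numpy 2.4.6, scipy 1.17.1, pandas 2.3.3, pysam 0.24.0 and matplotlib 3.10.9 were used.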

Additional observations from a re-analysis of the deposited data

How the results depend on the processing

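The share of members was lower in SPP1-nAb under every gate tried, with ratios of 0.565 to 0.788 around 0.695. It was 0.565 with 5 more excluded genes and 0.553 in members without satellite cell genes, where the gates gave 0.525 to 0.675 and leaving out cells with myeloid RNA 0.367. That last filter kept 139 of 157 IgG and 54 of 92 SPP1-nAb members, so it lowers the ratio by construction. The share of *Myh11*+*Kcnj8*- members had a ratio of 0.866 and ranged from 0.794 to 1.08, above 1 with at least 4 markers, with 5 more excluded genes and without satellite cell genes.

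Counts of genes past 2-fold moved widely. The 28 higher genes became 46 with at least 2 markers or with 1 UMI of excluded genes allowed, 10 with at least 4 markers, 12 with 5 more excluded genes, 5 after thinning to 2000 UMIs, 16 without the deepest 10% of members, 11 in *Kcnj8*+*Myh11*- and 12 in *Myh11*+*Kcnj8*- members alone, 69 and 2 at minima of 50 and 300 UMIs, and 8 in members with satellite cell genes. The 19 lower genes became 42 with at least 2 and 6 with at least 4 markers, 2 after thinning, 29 by mean CPM per cell, 10 and 3 in the 2 subsets, 60 and 4 at the 2 minima, and 7 and 9 without and with satellite cell genes. In members without satellite cell genes the 19 higher and 7 lower genes became 10 and 4 in *Myh11*+*Kcnj8*- members, 56 and 28 at 50 UMIs and 0 and 0 at 300 UMIs. The lower ones were 12 by mean CPM per cell, and the higher ones were 10 without cells holding myeloid RNA. Higher minima compare fewer genes by construction, and for the others the cause was not tested.

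Some genes named for all members changed direction, given as log2 ratios. *Ankrd1* was at 3.19 with at least 4 markers, 1.57 in *Myh11*+*Kcnj8*- members and 1.82 without satellite cell genes, the last from 8 and 20 UMIs. *Cxcl10* was at -0.92 in *Myh11*+*Kcnj8*- members, *Il1b* at -0.74 in members with satellite cell genes and *Opcml* at 0.23 with at least 4 markers. *Spp1* was at 0.69 with at least 2 markers and 2.07 with 1 UMI of excluded genes allowed, and *Ttn* at -0.50 without the deepest members. In members without satellite cell genes *Cxcl2* was at -0.0208 with 1 UMI of excluded genes allowed and *Fn1* at -0.65 without cells holding myeloid RNA. The causes were not tested. Over the named genes and alternatives 319 values stayed within the interval, 115 lay outside it and 11 past 2-fold changed direction, and over the lists 135 stayed and 131 moved.

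No paired analysis was possible because each group had 1 library. The number of members limits precision. *Cspg4*, with 62 and 48 UMIs in members without satellite cell genes, had a log2 ratio of 0.13 with an interval of -0.44 to 0.70, and genes with fewer than 100 UMIs were not counted as past 2-fold.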
